A study of Mus musculus with 2 samples.

Results

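This section describes 10 genes of the unfolded protein response and of the response to amino acid shortage, taken by gene symbol from a table of 38972 gene rows: Hspa5, Xbp1, Atf4, Atf5, Ddit3, Chac1, Trib3, Asns, Dnajb9 and Sesn2. All 10 had a row and all 10 passed the filter on low counts. RNA was sequenced from lung cells isolated as fibroblasts, with 1 library from myoFoxf1 KO mice (αSMA-Cre-ERT2 with Foxf1fl/fl) and 1 library from Foxf1fl/fl littermates as control, all of the C57Bl/6 strain. In the knockout, a Cre enzyme that tamoxifen switches on and that the smooth muscle actin promoter drives removes Foxf1, a forkhead transcription factor gene of the lung mesenchyme, so only cells that use this promoter can lose it. The protocol gives tamoxifen at 40 mg/kg on days 2 to 4 and bleomycin, a drug that scars the lung, into the trachea at 1 or 2 U/kg weekly for 2 to 4 weeks. Which dose and duration these cells had, the age of the mice and how many animals went into a library are not given in the sources used here. The control sample is titled as bleomycin-treated and the knockout sample is not, while the design text names bleomycin for both genotypes.

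Cells sense unfolded protein in the endoplasmic reticulum (ER) through IRE1, PERK and ATF6. IRE1 splices the Xbp1 transcript, ATF6 is cut by proteases, and both routes raise chaperones such as the Hspa5 product BiP. PERK and GCN2, a kinase that senses amino acid shortage, phosphorylate the translation factor eIF2, which slows protein synthesis and favours translation of ATF4. ATF4 then raises genes of amino acid supply and, with the Ddit3 product CHOP, of stress and cell death. Fibroblasts that secrete collagen, type II cells that make surfactant, and plasma cells all carry a high load of ER protein. Since ATF4 is controlled largely at translation and XBP1 by splicing, a count of reads per gene measures neither their activity nor the spliced form.

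Known promoter elements are tied to each arm, so the windows in which a match was found are shown here. The 250 bases before each RefSeq start (GRCm38.p6, 11 windows for the 10 genes) were searched on both strands. The ATF4-type amino acid response element was searched as TGATGNAA and found for Asns and Chac1, and it occurs in 3.45% of all 32851 such windows. The ER stress response element was searched as CCAAT followed after 9 bases by CCACG and found for Hspa5, against 0.113% of all windows. The element TGACGTGG, bound by XBP1, was found in none of the 11 and in 0.563% of all windows. No match says only that these letters are absent from the window searched. The sequences below run 5′ to 3′ along the gene, and capitals mark the match, which lies on the opposite strand in Chac1.
Hspa5 (chr2:34772020-34772049, plus strand): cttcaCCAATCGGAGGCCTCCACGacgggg
Asns (chr6:7693214-7693243, minus strand): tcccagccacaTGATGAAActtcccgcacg
Chac1 (chr2:119350992-119351228, plus strand): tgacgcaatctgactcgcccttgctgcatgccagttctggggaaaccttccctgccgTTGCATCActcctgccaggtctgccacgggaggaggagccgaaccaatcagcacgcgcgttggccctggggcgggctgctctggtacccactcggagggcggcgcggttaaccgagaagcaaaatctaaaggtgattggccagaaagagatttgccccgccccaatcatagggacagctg
GENCODE starts both Hspa5 and Asns further upstream than RefSeq, so the stretches printed for these 2 genes lie in an annotated 5′ untranslated exon, while the stretch printed for Chac1 lies before the gene in both annotations.

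The libraries held 15122990 reads assigned to genes in the knockout and 16146160 in the control. Foxf1 had 49 reads in the knockout and 158 in the control, a log2 ratio of -1.27 (95% interval -1.77 to -0.81), or -0.83 and not called after a correction for GC content and length. Levels are CPM (read counts relative to library size, which was adjusted by TMM), and all ratios are knockout over control. A call needed a difference of at least 2-fold with an exact 95% interval that excluded 1. With 1 library per genotype there is no replicate check and no p-value, so the intervals cover counting error only. PCR copies of a molecule were not told apart, so even that error may be larger than the intervals show. Of 14456 measured genes, 14.2% were called lower and 9.37% higher, and their median ratio was 0.01. TMM raises every ratio by 0.32 over scaling by total reads.

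Cell type markers differed between the libraries, and fewer cells of a type and less RNA per cell cannot be told apart in such bulk samples. All 14 fibroblast markers were detected in both libraries, summing to 4443 CPM in the knockout and 4475 CPM in the control, and 8 were called lower and 1 higher, with a median log2 ratio of -1.02. Without Vim, which macrophages also express, the other 13 summed to 756 CPM in the knockout and 1605 CPM in the control. Macrophage markers summed to 46430 CPM in the knockout and 23134 CPM in the control, with 8 of 18 called higher and none lower. Epithelial markers summed to 6059 CPM in the knockout and 17828 CPM in the control, with 13 of 16 lower and none higher, and mesothelial markers to 242 CPM in the knockout and 754 CPM in the control with 7 of 7 lower. B and plasma cell markers were lower in 5 of 10 measured and higher in none (471 CPM in the knockout and 763 CPM in the control). Endothelial markers held 4 lower and 1 higher of 12, with a median of -0.92 (471 CPM in the knockout and 458 CPM in the control, and, without Cav1, 175 CPM in the knockout and 303 CPM in the control). Smooth muscle and pericyte markers held 2 lower and 2 higher of 9 (70.4 CPM in the knockout and 90.9 CPM in the control), and erythroid genes 4 lower of 5 (738 CPM in the knockout and 1989 CPM in the control). Neutrophil markers held 3 higher of 8 (271 CPM in the knockout and 99.8 CPM in the control), with 1 of the 10 listed markers at 0 reads in the control. T cell markers held 2 higher of 8, with a median of 0.09 (192 CPM in the knockout and 117 CPM in the control). Without Il7r the T cell markers summed to 58.1 CPM in the knockout and 57.4 CPM in the control. The most abundant marker of each type had a log2 ratio of 1.11 (Lyz2, macrophage), 1.99 (S100a9, neutrophil), 0.36 (Vim, fibroblast), -0.92 (Acta2, smooth muscle), -1.92 (Scgb1a1, epithelium), -1.52 (Krt19, mesothelium), 0.93 (Cav1, endothelium), -2.10 (Cd79a, B cell), 1.15 (Il7r, T cell) and -1.31 (Hbb-bs, erythroid). The part of these shifts in the ratios below was not tested.

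The stress response genes did not move as a block. Of the 10 genes, 3 were called lower in the knockout library (Chac1, Atf5 and Trib3), against 14.2% of all measured genes, and none was called higher, against 9.37%. Their median log2 ratio was -0.61, with 8 genes below 0 and 2 above, while the median of all measured genes was 0.01. The 2 above 0 were the ER chaperone genes Hspa5 and Dnajb9 (0.19 and 0.31 with total reads alone), and the 3 called lower are among the genes ATF4 acts through or on. Asns, also an ATF4 target, was not called (-0.12). The 2 groups differ in GC content as well, at 45.6% and 40.6% for Hspa5 and Dnajb9 and from 57.4% to 61.7% for the 3 called genes. After the correction for GC content and length, Chac1 (-0.77), Atf5 (-0.06) and Trib3 (-0.31) were no longer called.

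**Figure D1:**
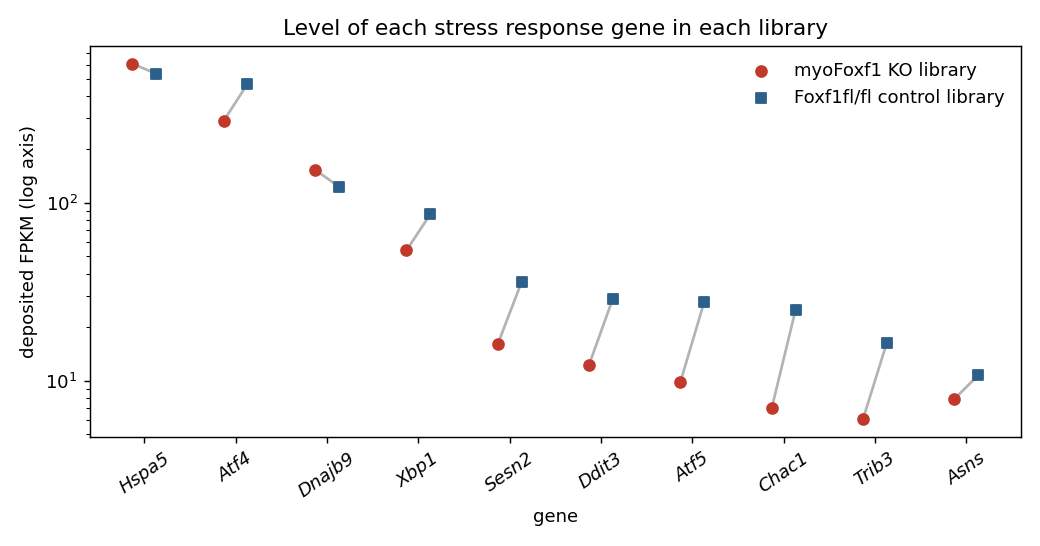
Deposited FPKM (reads relative to gene length and library total, log axis) of each gene in the myoFoxf1 KO library (red circles) and the Foxf1fl/fl control library (blue squares), 1 library each. The symbols lie close together for Hspa5 (607 FPKM in the knockout and 533 in the control) and Dnajb9, and the knockout symbol lies furthest below the control symbol for Chac1 (7.03 FPKM in the knockout and 24.9 in the control).

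Per kilobase of gene, Hspa5 was the most abundant of the 10 in both libraries, at 607 FPKM in the knockout and 533 FPKM in the control. Atf4 came next, with 289.7 FPKM in the knockout and 467 FPKM in the control. Dnajb9 followed with 153 FPKM in the knockout and 123 FPKM in the control, and Xbp1 with 54.01 FPKM in the knockout and 86.1 FPKM in the control. These 4 and then Sesn2, Ddit3 and Atf5 kept the same order in both libraries. The least abundant gene was Trib3 in the knockout, at 6.10 FPKM, and Asns in the control, at 10.7 FPKM. With 1 library per group, whether neighbours in this order differ beyond the spread between animals cannot be given.

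Among the chaperones, Hspa5 (chr2:34771970-34776531, plus strand) encodes BiP, the main Hsp70 chaperone of the ER lumen, which also holds the sensors inactive. It had 32228 reads (2377 CPM) in the knockout and 30226 reads (1678 CPM) in the control. Its log2 ratio of 0.50 (0.48 to 0.53) was short of 2-fold. Dnajb9 (chr12:44205897-44210068, minus strand) encodes ERdj4, a co-chaperone that helps BiP and is a target of XBP1. It had 4328 reads (319 CPM) in the knockout and 3717 reads (206 CPM) in the control, a log2 ratio of 0.63 (0.57 to 0.69), also not called. With TMM scaling both chaperones were thus somewhat more abundant in the knockout library, with narrow counting intervals and no call. After the correction for GC content and length, Hspa5 was at 0.18 and Dnajb9 at 0.09.

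Of the transcription factors, Xbp1 (chr11:5520659-5525893, plus strand) had 2653 reads (196 CPM) in the knockout and 4515 reads (251 CPM) in the control. Its log2 ratio of -0.36 (-0.43 to -0.29) was not called, and spliced and unspliced transcripts are counted together. Atf4 (chr15:80255184-80257540, plus strand) had 7552 reads (557 CPM) in the knockout and 12987 reads (721 CPM) in the control, a log2 ratio of -0.37 (-0.41 to -0.33) and no call. Thus Xbp1 and Atf4 were at nearly the same ratio, short of 2-fold. Atf5 (chr7:44812257-44816658, minus strand), a relative of Atf4 whose translation is also raised when eIF2 is phosphorylated, had 297 reads (21.9 CPM) in the knockout and 890 reads (49.4 CPM) in the control. It was called lower, with a log2 ratio of -1.17 (-1.37 to -0.98). Its 5′ end overlaps Nup62 by 571 bases and Il4i1 by 289 bases on the other strand, and the library kit does not mark strand, so their reads cannot be told apart there. Nup62 was not called (-0.06), and Il4i1, an amino acid oxidase gene, was lower on 78 reads in the knockout and 380 in the control (-1.87).

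Ddit3 (chr10:127290774-127296288, plus strand) encodes CHOP, the factor linked to cell death under lasting stress. It had 318 reads (23.5 CPM) in the knockout and 800 reads (44.4 CPM) in the control, a log2 ratio of -0.92 (-1.11 to -0.73) just short of a call, which it passed with total reads alone (-1.24). The gene shares 68 bases at its 3′ end with Mars on the other strand, which had 551 reads in the knockout and 835 in the control (-0.19, not called). Sesn2 (chr4:132492032-132510501, minus strand), whose protein binds leucine and restrains the growth kinase complex mTORC1, was also short of a call. It had 843 reads (62.2 CPM) in the knockout and 2007 reads (111 CPM) in the control, a log2 ratio of -0.84 (-0.96 to -0.72), or -1.16 and called with total reads alone.

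Downstream of ATF4 and CHOP, Chac1 had the lowest ratio of the 10. Chac1 (chr2:119351229-119354381, plus strand) encodes an enzyme that breaks down glutathione and is raised by ATF4 and its partners. It had 174 reads (12.8 CPM) in the knockout and 659 reads (36.6 CPM) in the control, a log2 ratio of -1.51 (-1.76 to -1.27). Trib3 (chr2:152337422-152344032, minus strand), a pseudokinase gene that ATF4 and CHOP raise and whose protein feeds back on ATF4, had 196 reads (14.5 CPM) in the knockout and 561 reads (31.1 CPM) in the control. It was called lower at -1.11 (-1.35 to -0.87). Asns (chr6:7675169-7693254, minus strand) encodes asparagine synthetase, an ATF4 target of amino acid shortage. With 327 reads (24.1 CPM) in the knockout and 473 reads (26.3 CPM) in the control, its interval included 0 (-0.12, -0.33 to 0.08). The promoters of both Chac1 and Asns hold the TGATGNAA element shown above, and their ratios differed by more than their counting intervals.

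A ratio to Hspa5 within each library depends on no scaling. Per 1000 reads of Hspa5 there were 5.40 reads of Chac1 in the knockout and 21.8 in the control. Trib3 had 6.08 reads per 1000 of Hspa5 in the knockout and 18.6 in the control, and Atf5 had 9.22 in the knockout and 29.4 in the control. Ddit3 had 9.87 reads per 1000 of Hspa5 in the knockout and 26.5 in the control, and Sesn2 had 26.2 in the knockout and 66.4 in the control. Dnajb9 was nearly level with Hspa5, at 134 reads per 1000 in the knockout and 123 in the control, while Atf4 had 234 in the knockout and 429.7 in the control. Xbp1 had 82.3 in the knockout and 149 in the control. Only Dnajb9 had a higher ratio of knockout over control than Hspa5, so the other genes were necessarily fewer per read of Hspa5 in the knockout library. Such a ratio does not remove the trend with GC content that is given below. After the correction for GC content and length, Atf4 (0.19) was level with Hspa5 (0.18). The other genes were then below Hspa5, from Dnajb9 at 0.09 to Ddit3 at -1.09. Asns had 10.1 reads per 1000 of Hspa5 in the knockout and 15.6 in the control.

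The ratios of all genes moved with the GC content of their transcripts, and so did those of the 10. Among genes with a GC content under 42% the median log2 ratio was 0.67 and 3.35% were called lower, while at 58% or more the median was -0.81 and 39.4% were called lower. Dnajb9, at 40.6% GC, lay in the lowest range, and Trib3, Sesn2 and Atf5, at 58.2%, 58.7% and 61.7%, lay in the highest. Chac1 (57.4%) and Atf4 (55.5%) lay in the range from 54% to 58%, where the median was -0.43 and 23.0% were called lower. Ddit3 stood apart from this trend: its GC content of 45.6% is that of Hspa5, in a range with a median of 0.45 where 4.58% of genes were called lower, and its own ratio was -0.92.

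**Figure D2:**
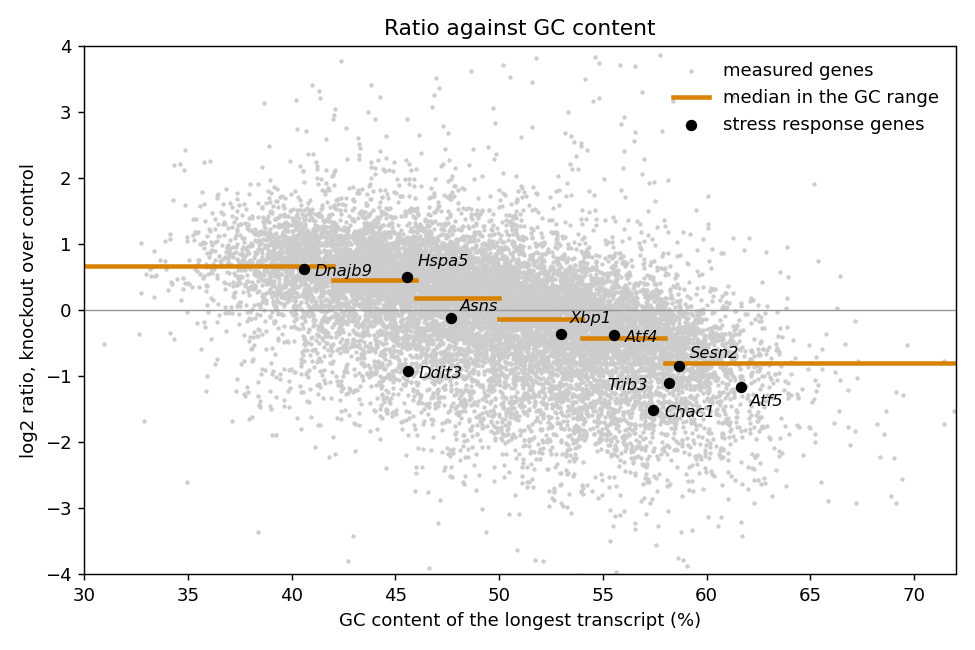
Log2 ratio of knockout over control against the GC content (%) of the longest transcript, for measured genes (grey points, 68 of 14290 lie outside the axes) and the 10 stress response genes (black), with the median of each GC range as an orange line. Hspa5, Dnajb9, Sesn2 and Atf4 lie near the line of their range, and Ddit3 and Chac1 lie well below theirs.

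After subtraction of the trends of the ratio on GC content and transcript length, 1 of the 10 genes was called lower, against 10.6% of all genes, and none higher, against 5.51%. That gene was Ddit3, at -1.09 (-1.28 to -0.90). Chac1 was at -0.77 (-1.02 to -0.53) and Trib3 at -0.31 (-0.55 to -0.08), both without a call but with intervals below 0. Atf5 was at -0.06 (-0.26 to 0.13) and Sesn2 at -0.11 (-0.22 to 0.01). Hspa5 was at 0.18, Dnajb9 at 0.09, Atf4 at 0.19, Xbp1 at 0.01 and Asns at -0.18. Relative to genes of like GC content and length, Ddit3 and Chac1 were thus the furthest below 0 of the 10, and the other 8 lay between -0.31 and 0.19. The GC content and length used for Ddit3 came from a transcript of 969 bases, shorter than the gene length behind its deposited FPKM. The effect of this difference on its corrected value was not tested.

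**Figure D3:**
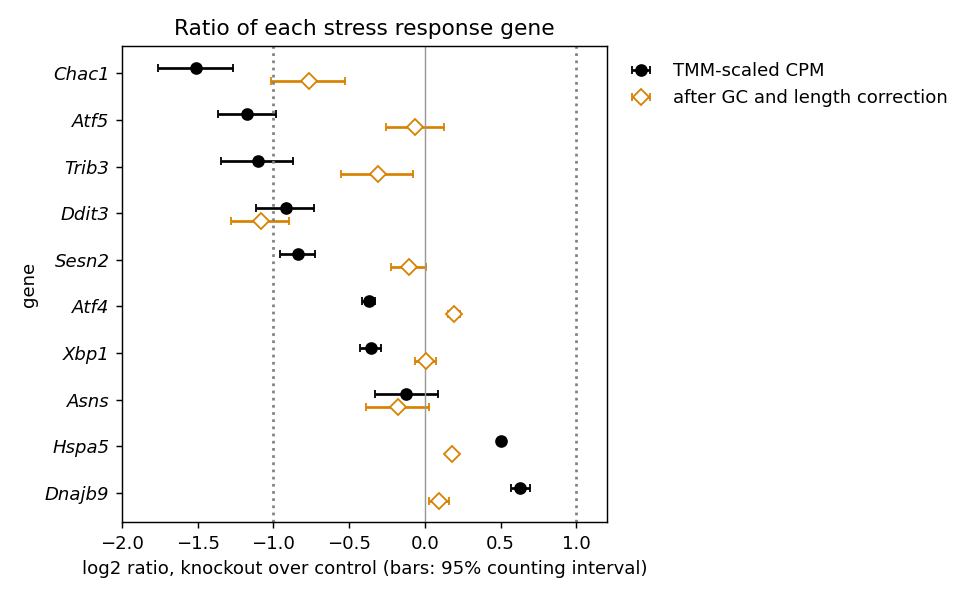
Log2 ratio of knockout over control for each gene, from TMM-scaled CPM (black circles) and after the GC and length correction (orange diamonds), with 95% counting intervals and dotted lines at 2-fold. Chac1, Atf5 and Trib3 lie beyond the lower line before the correction, and Ddit3 alone lies beyond it afterwards, at -1.09.

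The wider pathway was described with 8 lists, of which 127 of 129 genes were measured. Of these, 11 (8.66%) were called lower and 7 (5.51%) higher, both below the shares of all measured genes (14.2% and 9.37%). Their median log2 ratio was 0.03. With scaling by total reads alone 19 were called lower and 1 higher, Slc7a11, beside 22.1% and 4.05% of all measured genes. The median of all measured genes was then -0.32. The calls in the lower direction lay mostly among ATF4 targets and amino acid transporters, as the plot of the lists shows.

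Partners and other targets of ATF4 held 6 lower and none higher of 17 measured, beside 14.2% and 9.37% of all measured genes. Their median log2 ratio was -0.58. After the correction 4 were lower and 1 higher, beside 10.6% and 5.51% of all genes, with a median of -0.56 for the list. Nupr1, a small chromatin-linked stress protein, had 698 reads in the knockout and 3008 in the control, a log2 ratio of -1.70 (-1.82 to -1.58) that was -1.63 after correction. Stc2, the secreted stanniocalcin 2, had 21 reads in the knockout and 83 in the control (-1.55), and Cbs, an enzyme of cysteine synthesis, had 8 in the knockout and 40 in the control (-1.86), and both kept the call with the correction. Bbc3, the cell death gene PUMA and also a p53 target, had 82 reads in the knockout and 402 in the control (-1.88), and was at -0.46 without a call after correction. Of these 4, Nupr1 had the most reads, and Cbs and Stc2 rested on low counts.

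Amino acid transporters went both ways, with 3 lower and 1 higher of 10, beside 14.2% and 9.37% of all measured genes. Their median log2 ratio was -0.38, which was -0.065 after correction with the same number of calls. Slc7a11, the cystine importer, had 22820 reads (1683 CPM) in the knockout and 4641 reads (258 CPM) in the control, a log2 ratio of 2.71 (2.66 to 2.75) that was 1.91 after correction. Slc6a9, a glycine transporter, was lower on 77 reads in the knockout and 313 in the control (-1.61). Slc1a4, which carries serine and alanine, was lower on 177 reads in the knockout and 565 in the control (-1.26), and Slc43a1, a transporter of large neutral amino acids, on 12 in the knockout and 40 in the control (-1.30). All 4 kept their calls after correction. Slc7a11 was thus opposite in direction to the other called transporters and to Chac1, which breaks down glutathione, a peptide built with cysteine from the cystine that Slc7a11 imports.

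Amino acid synthesis and one-carbon enzymes held no gene called lower and 1 called higher of 15, beside 14.2% and 9.37% of all measured genes. Their median was 0.002. With total reads alone 2 were lower and none higher, with a median of -0.31, beside -0.32 for all measured genes. None of 20 cytosolic aminoacyl-tRNA synthetases was called, with a median of -0.01 and a range of -0.95 to 0.79, while 2 were called lower with total reads alone, at a median of -0.32. The most abundant of them were Nars (0.21) and Aars (-0.12). Many genes of both lists are known ATF4 targets, like Asns.

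Sensors and the eIF2 step were mostly uncalled, while 14.2% of all measured genes were called lower and 9.37% higher. Among 14 genes of eIF2, its exchange factor, kinases and phosphatase subunits, the median log2 ratio was 0.22 (-0.09 with total reads alone), and Eif2ak2 alone was called, higher on 507 reads in the knockout and 278 in the control (1.28, or 0.81 and not called after correction). Eif2ak2 encodes PKR, a kinase that double-stranded RNA activates and interferon induces. The 8 sensors and their processing enzymes had a median of -0.01 (-0.32 with total reads alone, which was then also the median of all measured genes). Mbtps2, a protease that releases ATF6, was higher on 455 reads in the knockout and 247 in the control (1.29), and Creb3l1, an ATF6-like factor of collagen-secreting cells, was lower on 123 in the knockout and 475 in the control (-1.54). Neither was called after correction, at 0.59 and -0.67.

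ER chaperones and folding enzymes held 2 higher and none lower of 21, beside 9.37% and 14.2% of all measured genes. Their median log2 ratio was 0.22. With total reads alone none was called higher and 2 lower, and the median was -0.10, while that of all measured genes was -0.32. The called genes were Canx, the lectin chaperone calnexin, with 13930 reads in the knockout and 8566 in the control (1.11), and Hspa13, an Hsp70-like protein of the ER, with 1727 reads in the knockout and 925 in the control (1.31). Genes of ER-associated degradation and translocation held 1 higher and 1 lower of 22, with a median of 0.26, or none higher and 2 lower with a median of -0.06 with total reads alone. Edem3, which trims mannose from misfolded glycoproteins, was higher on 2142 reads in the knockout and 1199 in the control (1.25), and Derl3, a channel component abundant in secretory cells, was lower on 9 in the knockout and 32 in the control (-1.38). None of these 4 genes was called after correction, and the corrected medians of the 2 lists were 0.24 and 0.26, beside 0.06 for all genes.

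**Figure D4:**
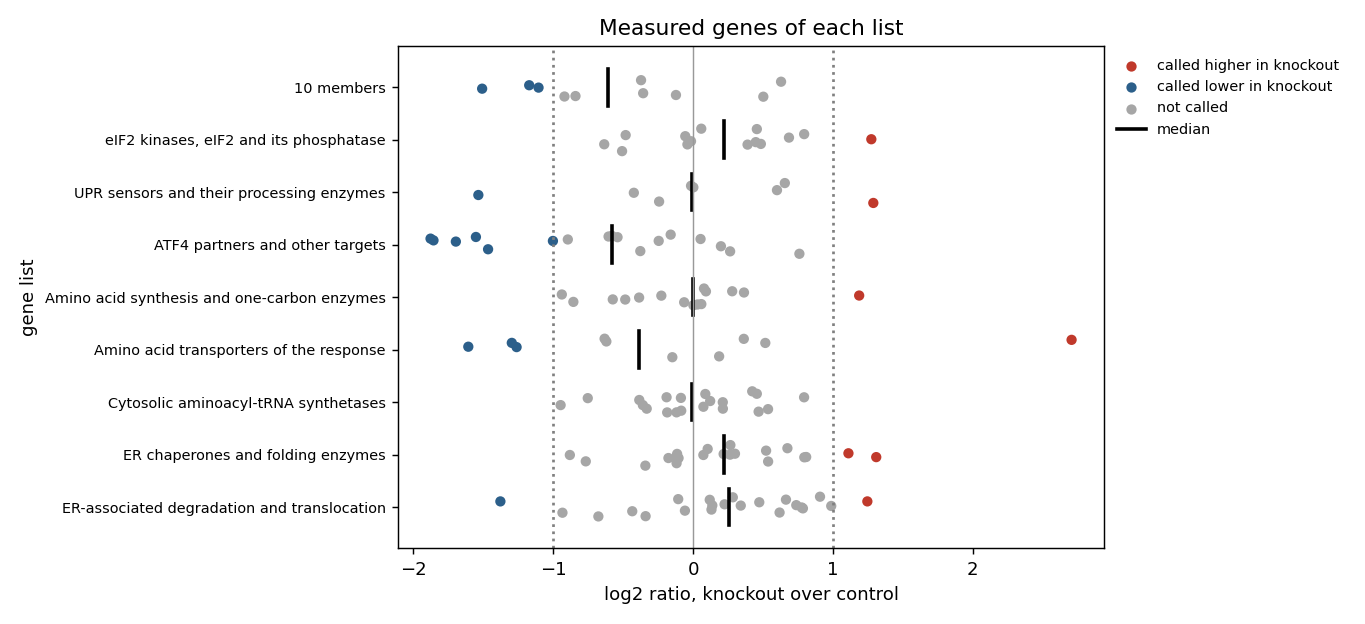
Log2 ratio of knockout over control for the measured genes of the 10 members and of each pathway list (1 point per gene, red called higher, blue called lower, grey not called, black bar the median, dotted lines at 2-fold). The medians of the members (-0.61), the ATF4 targets (-0.58) and the transporters (-0.38) lie below 0, and those of the eIF2 step (0.22), the chaperones (0.22) and degradation and translocation (0.26) above. With scaling by total reads alone these 3 lie between -0.10 and -0.06, while the median of all measured genes is -0.32. After the GC and length correction the members are at -0.085 and the transporters at -0.065.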

How the data were processed

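For both libraries the authors deposited estimated counts by gene, and FPKM, per the file headers, and the submitters' processing notes name TopHat, Cufflinks, GRCm38 and mm10 without roles. The kit was Nextera XT, per the labels' protocols, and does not mark strand. Estimated counts (not whole within 0.001 for 71.1% of genes with reads in the knockout and 74.2% in the control) were rounded. The deposited FPKM equalled the count divided by gene length and library total, so it was used only for levels per length and in alternatives.

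Libraries were scaled with TMM (edgeR 4.0.16, R 4.3.3). Ratios used a prior count of 0.5, and intervals are exact conditional binomial (Clopper-Pearson) 95% intervals (scipy 1.17.1). A gene counted as measured from 1 CPM in the higher library and 20 reads summed over both, which 14456 genes reached. For the correction, lowess curves (statsmodels 0.14.6, span 0.3) of the ratio on GC content, then on log2 length, were subtracted, taken from each gene's longest GENCODE M21 transcript (98.9% of measured genes). Gene coordinates are those deposited. Promoters are from RefSeq on GRCm38.p6.

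The design allows no test. The members, the 8 pathway lists and the 10 cell type lists were chosen with earlier results of these data known. Named genes are the members, up to 4 called genes of each pathway list by size of the ratio or its 2 most expressed where none was called, the most abundant marker of each cell type, and Foxf1. A gene that this rule takes is not reported here. Nup62, Il4i1 and Mars overlap members. Calculations were tested on simulated counts. The 12 alternatives were scaling by total reads or by DESeq2 1.42.0 size factors, log2 of FPKM plus 1 or 0.1, 2 other count filters, 2 other call rules, a prior count of 2, the GC and length correction, and ratios relative to fibroblast or macrophage markers.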

Additional observations from a re-analysis of the deposited data

How the results depend on the processing

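The 3 lower calls among the 10 genes became 5 with total reads alone, with FPKM plus 1, with FPKM plus 0.1 and at 1.5-fold, 1 where the interval had to exclude 2-fold and 1 with the GC and length correction, and the count of higher calls was 1 at 1.5-fold. Of all measured genes, 22.1% were called lower with total reads, 12.3% with FPKM plus 1, 20.7% with FPKM plus 0.1 and 23.4% at 1.5-fold. This share was 6.45% where the interval had to exclude 2-fold, 9.40% at 10 CPM or more and 10.6% with the correction. The median log2 ratio of the 10 genes, -0.61, was -0.92 with total reads alone, -0.90 with FPKM plus 1, -0.92 with FPKM plus 0.1 and -0.085 with the correction. Of the 127 pathway genes the 11 lower calls became 19 with total reads, 6 at 10 CPM or more, 24 at 1.5-fold, 6 where the interval excludes 2-fold and 7 with the correction, and the 7 higher calls became 1 with total reads or FPKM plus either constant, 23 at 1.5-fold and 2 with the correction. The share of all measured genes called higher was 4.05% with total reads, 2.42% with FPKM plus 1 and 3.88% with FPKM plus 0.1. It was 22.1% at 1.5-fold and 5.51% with the correction. With the fibroblast marker median subtracted, which adds the same amount to all ratios, 0 members were then lower and 2 higher (Hspa5 and Dnajb9), with a median of 0.42, and 0 pathway genes were lower and 68 higher, with Foxf1 at -0.25. Of all measured genes, 2.36% were then lower and 51.5% higher. Subtracting the median of the macrophage markers left 8 members lower with a median of -1.55, 58 pathway genes lower and 1 higher, and Foxf1 at -2.22. All measured genes were then 46.9% lower and 1.22% higher. Foxf1 lost its call with the fibroblast median subtracted, with the correction (-0.83) and where the interval had to exclude 2-fold, and was not measured at 10 CPM. Chac1, Atf5 and Trib3 were below 0 under all 12 alternatives, and Chac1 was called in 10 of them and Atf5 and Trib3 in 9. The other count filters and the 1.5-fold rule left these ratios unchanged and could not remove their calls, so this tally is not a set of 12 separate checks. None of these genes was called with the correction or with the fibroblast median subtracted. Of 444 other values under the alternatives 199 moved beyond their counting interval or set margin and no called member changed sign. Every member without a call changed sign in at least 1 alternative. Among them were Ddit3 and Sesn2, at 0.10 and 0.18 with the fibroblast median subtracted. No paired analysis was possible because each group has 1 library. Depth limits the low counts most: the interval of Derl3, on 9 reads in the knockout and 32 in the control, was -2.67 to -0.32.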

Other observations

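Among genes of the pathway lists that were singled out after their values were seen, Ddit4, a brake on mTORC1 that ATF4 and hypoxia raise, had 268 reads in the knockout and 985 in the control, a log2 ratio of -1.47 that was -0.69 and not called after the GC and length correction. Cth, which makes cysteine, had 52 reads in the knockout and 139 in the control (-1.002, or -1.29 after correction, called in both). Herpud1, an ER degradation gene that both ATF6 and ATF4 raise, had 1696 reads in the knockout and 4307 in the control (-0.93, not called), the lowest ratio of its list after Derl3. Gdf15, a secreted stress cytokine, had 1643 reads in the knockout and 2836 in the control (-0.38) and was at 0.71 after correction, without a call. Cebpb, a partner of ATF4 with a GC content of 67.2%, had a log2 ratio of -0.16, which the correction turned to 1.43, called higher.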
